A study of Mus musculus with 6 samples.

Results

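Antiviral interferon-stimulated genes are transcripts that cells raise after sensing interferon. The group described here holds 40 such genes, chosen by name from the 25638 genes of the deposited expression table. Of the 40, 35 reached 1 FPKM (read fragments scaled for gene length and library depth) in at least 1 library and were compared, and 5 stayed under 1 FPKM in all 6 libraries and are given as levels. They were measured in OT-I cells, mouse CD8+ T cells whose transgenic receptor recognises an ovalbumin peptide, with the genotype given as WT. The T cells were stimulated with that peptide for 48 hours in 3 settings, with 2 libraries each. In the TAN group they were cultured with CD11b+ Ly6G+ cells of low Ly6C, which is the surface pattern of neutrophils. In the TAMo group they were cultured with CD11b+ cells that lacked Ly6G and had high Ly6C, the pattern of classical monocytes. In the vehicle group no myeloid cells were named. Both myeloid populations came from the spleen, not the tumour, of mice bearing LLC tumours, a transplanted lung carcinoma. All 3 groups share the peptide, and the T cells were purified again before RNA was taken. Neither the age of the mice nor the number of animals behind a library is stated.

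Type I interferons bind a receptor made of the chains IFNAR1 and IFNAR2, whose kinases JAK1 and TYK2 act on STAT proteins, STAT2 among them. These and IRF9 form the complex ISGF3, which binds a sequence known as the interferon-stimulated response element (ISRE). Interferon-gamma, a main product of activated CD8+ T cells, acts through its own receptor and through factors that bind gamma-activated sites (GAS), and it raises an overlapping set of genes that includes Irf1. The products sense viral nucleic acids, degrade or sequester viral RNA, block budding, and feed back on the pathway.

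The libraries held the markers of T cells. All 12 listed T cell genes with a row, among them Cd3e and Cd8a, were above 1 FPKM in every group. The neutrophil list was nearly silent, with 15 of its 16 genes below 1 FPKM throughout and 8 listed at 0 everywhere, including S100a8 and S100a9. The exception was Il1r2, with 1.61 and 1.39 FPKM with TAN, 1.62 and 1.23 FPKM with TAMo, and 0.248 and 0.614 FPKM with vehicle. Of the 16 monocyte and macrophage genes, 13 stayed under 1 FPKM everywhere, among them Csf1r, Lyz2 and Adgre1, and those that reached it were Ly6c2, Cd68 and Cd14. The libraries corresponded to between 41.6 and 45.3 M counted reads, so that 1 read in a gene of 2 kb was worth 0.011 to 0.012 FPKM. Even read numbers made up 98.3% of the low ones for TAMo replicate 1 and 60.1% to 63.5% elsewhere, which leaves the total of that library uncertain. Totals were sought only between 30 and 60 M. A smaller total could not be found, and this library may lie outside the ranges given. Transcripts of the mitochondrial genome took 8.07% and 8.21% of all FPKM with TAN, 1.2% and 1.32% with TAMo, and 8.15% and 8.34% with vehicle. Rescaling libraries to one sum of FPKM moved the median log2 change of all tested genes for TAMo against vehicle to 0.25, against 0.06 without it. In RNA from bulk cells, fewer cells expressing a gene and less of its RNA per cell cannot be told apart. Nothing in the labels ties a library to its own culture or animal, so p-values reflect variation among these libraries alone, which could be technical.

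The promoters are shown because the genes are defined by a shared response, and because the members moved together in some comparisons and apart in others. RefSeq promoter windows (build GRCm38.p6, 250 bases before to 50 after the annotated start) were matched for 29 of the 40 members. Windows were searched on both strands for an ISRE core, GAAANNGAAA, and for a GAS, TTCNNNGAA. An ISRE core lay in 14 of the 29 member windows (48.3%) and in 3.44% of all 32851 windows. A GAS lay in 7 of the 29 (24.1%) and in 8.3% of all windows. A match describes these letters and is not evidence of binding. The windows shown are those of the members with an entry that had the largest changes on the log2(FPKM + 1) scale, each 5′ to 3′ on the strand of the gene, with motif matches in capitals. The 2 with the largest rises for TAMo against vehicle were Ddx58 (chr4:40239776-40240075, minus strand) and Dtx3l (chr16:35938978-35939277, minus strand). The 2 with the largest falls in that comparison were Mndal (chr1:173880138-173880437, minus strand) and Ifi203 (chr1:173942623-173942922, minus strand). Ifi203 reached 1 FPKM with vehicle alone, so that limit itself favoured its fall. Those with the largest falls for TAN against vehicle were Isg15 (chr4:156200769-156201068, minus strand) and Ifi206 (chr1:173491269-173491568, minus strand).
Ddx58: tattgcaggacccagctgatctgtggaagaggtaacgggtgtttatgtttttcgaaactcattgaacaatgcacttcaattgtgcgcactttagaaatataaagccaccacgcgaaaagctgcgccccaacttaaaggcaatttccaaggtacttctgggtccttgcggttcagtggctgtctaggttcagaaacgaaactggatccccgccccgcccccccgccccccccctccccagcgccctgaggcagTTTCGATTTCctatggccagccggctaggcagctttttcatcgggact
Dtx3l: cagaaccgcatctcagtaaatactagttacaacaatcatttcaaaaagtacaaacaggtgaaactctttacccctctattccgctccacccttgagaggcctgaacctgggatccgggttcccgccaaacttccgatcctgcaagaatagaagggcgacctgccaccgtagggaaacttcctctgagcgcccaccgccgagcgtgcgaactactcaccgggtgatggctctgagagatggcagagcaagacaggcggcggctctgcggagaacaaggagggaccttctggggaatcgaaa
Mndal: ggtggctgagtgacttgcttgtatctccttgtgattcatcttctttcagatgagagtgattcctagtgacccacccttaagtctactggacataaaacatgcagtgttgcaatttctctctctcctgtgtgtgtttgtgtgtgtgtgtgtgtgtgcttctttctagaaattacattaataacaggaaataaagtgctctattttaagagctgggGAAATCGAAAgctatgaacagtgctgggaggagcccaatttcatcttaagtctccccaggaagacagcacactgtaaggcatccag
Ifi203: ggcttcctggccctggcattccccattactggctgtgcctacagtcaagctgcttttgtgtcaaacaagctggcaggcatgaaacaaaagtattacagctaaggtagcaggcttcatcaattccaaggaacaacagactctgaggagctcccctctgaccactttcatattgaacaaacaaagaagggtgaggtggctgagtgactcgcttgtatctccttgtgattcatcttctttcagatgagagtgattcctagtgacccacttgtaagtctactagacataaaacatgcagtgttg
Isg15: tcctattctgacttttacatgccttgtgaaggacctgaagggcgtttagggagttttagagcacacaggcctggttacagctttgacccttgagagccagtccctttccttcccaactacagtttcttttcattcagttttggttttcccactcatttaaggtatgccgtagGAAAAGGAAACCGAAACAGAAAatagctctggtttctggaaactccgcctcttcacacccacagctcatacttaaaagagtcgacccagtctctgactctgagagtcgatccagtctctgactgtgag
Ifi206: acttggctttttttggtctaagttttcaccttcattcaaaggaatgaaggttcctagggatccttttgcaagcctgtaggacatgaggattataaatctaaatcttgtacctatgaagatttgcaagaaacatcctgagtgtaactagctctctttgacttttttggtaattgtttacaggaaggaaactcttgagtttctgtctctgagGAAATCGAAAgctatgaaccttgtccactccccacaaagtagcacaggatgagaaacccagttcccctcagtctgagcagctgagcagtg
The capitals of Isg15 hold 3 overlapping ISRE cores in a single run. Mndal and Ifi206 share the same core within an identical run of 20 bases. With TAMo, Mndal was lower than with vehicle and Ifi206 higher, and the role of the core was not tested. The Ifi203 and Mndal windows share an identical run of 58 bases, and the Ifi203 window held no match to either motif. Both genes have 2 windows, and the one nearest to the GENCODE start was used. The other Ifi203 window, 180 bases downstream, holds an ISRE core, as does the other Mndal window. Both Mndal windows lie 62.3 and 62.5 kb inside the longer span that GENCODE gives this gene. In Ddx58 the core reads on the opposite strand and lies past the annotated start. The window of Dtx3l had no match.

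Levels spanned a wide range. With TAN the lowest mean was that of Ifit3, at 0.14 FPKM, and the highest that of Bst2, at 215 FPKM. With TAMo the range ran from 0.0674 FPKM (Ifit3) to 360 FPKM (Ifi27l2a), and with vehicle from 0.198 FPKM (Ifit3) to 259 FPKM (Bst2). The median member mean was 5.22 FPKM with TAN, 15.5 FPKM with TAMo and 8.44 FPKM with vehicle.

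**Figure D1:**
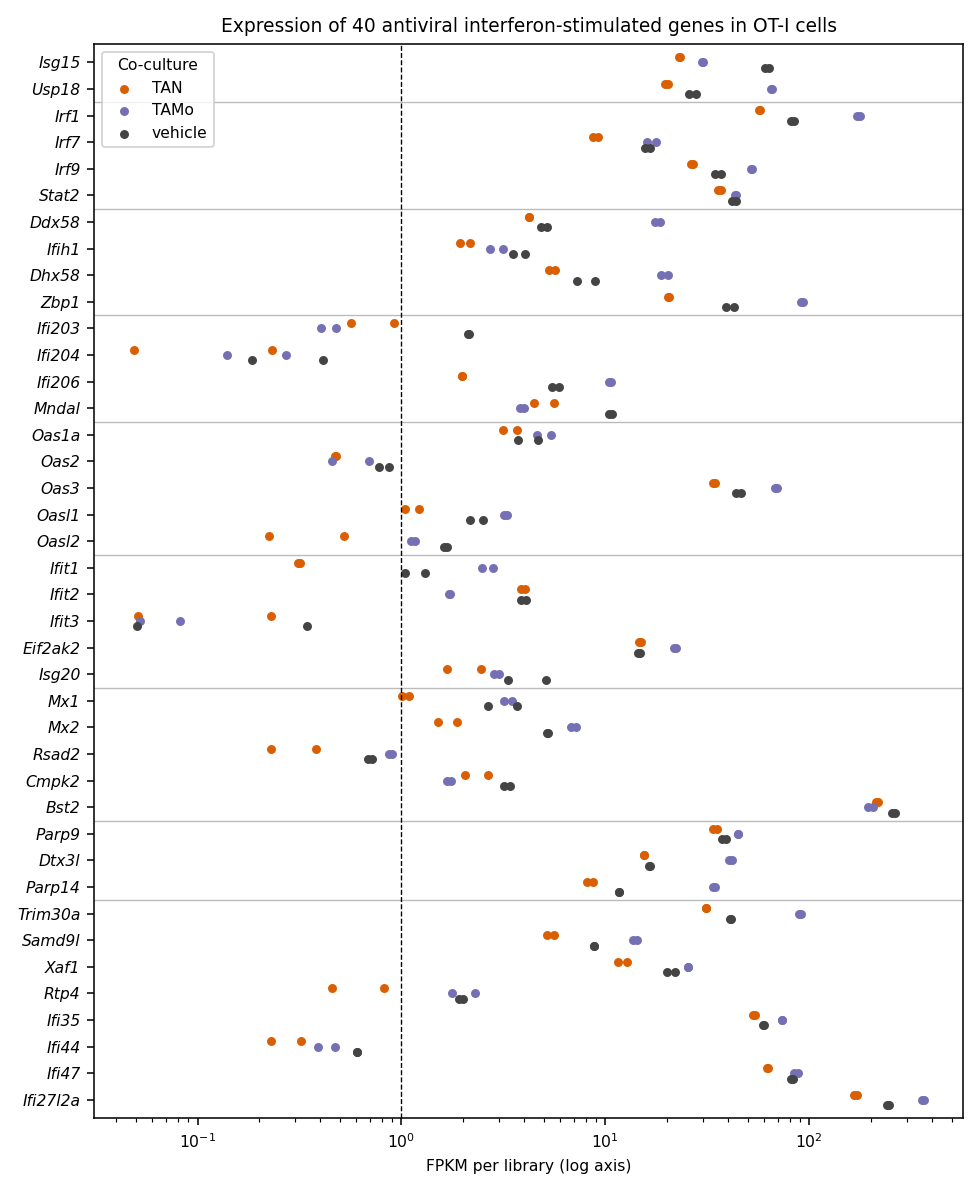
FPKM of the 40 members in each of the 6 libraries (log axis), with 2 points per group for TAN, TAMo and vehicle and members ordered by role between grey lines. The dashed line marks 1 FPKM, and Ifi204, Oas2, Ifit3, Rsad2 and Ifi44 lie to its left in every library.

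After co-culture with TANs, 30 of the 35 members compared were lower than with vehicle, none was higher and 5 did not pass the test (limma on log2(FPKM + 1), adjusted p under 0.05). That is 85.7% called lower, while 11% of all 10727 tested genes were lower and 9.37% higher, 20.3% in all. The median log2 change was -0.53 over the members and -0.01 over all tested genes. Changes ran from -1.40 (Isg15) to 0.02 (Eif2ak2), and 12 members had at most 0.5 of the vehicle level in FPKM. The TAN and vehicle libraries did not overlap in 33 of the 35, and in 64.1% of all tested genes. Ifi203 reached 1 FPKM with vehicle alone, and Ifit1, Oasl2 and Rtp4 with vehicle and TAMo but not TAN. For these 4 the limit of 1 FPKM itself favoured a lower TAN value, so the count over the 35 is a description and not support. Without 1 of the TAN or vehicle libraries, 24 to 27 members were still called lower and none higher, while the number of all genes called was 703 without vehicle replicate 1, 823 without vehicle replicate 2, 805 without TAN replicate 1 and 704 without TAN replicate 2, against 2180 with all libraries. The summed level of the 10 listed dendritic cell genes, mostly MHC class II and Cd74, was also lower with TAN, at 60.5 to 61.6 FPKM, against 77.7 to 78.8 FPKM with vehicle. That of the 16 monocyte and macrophage genes, mostly Ly6c2, was 25.4 to 25.6 FPKM with TAN and 32.7 to 33 FPKM with vehicle. The sum of the 16 neutrophil genes, mostly Il1r2, went the other way, at 1.53 to 1.68 FPKM with TAN and 0.31 to 0.663 FPKM with vehicle. The listed Cd209a was at 0 in all libraries, as were C1qa, C1qb and C1qc. The part of these cells in the result was not tested.

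Co-culture with TAMos split the same members: 20 were higher than with vehicle, 8 lower and 7 did not pass. Called in either direction were 28 of the 35 members and 86.5% of all tested genes, so the total was near the background. By direction, 57.1% of members were higher and 22.9% lower, against 45.7% and 40.7% of all tested genes. That difference in direction was not tested. Ifi203, among the 8 lower, reached 1 FPKM with vehicle alone, so the limit itself favoured a lower TAMo value. The count is thus a description and not support. The median log2 change was 0.30 over the members and 0.06 over all tested genes, and it became 0.49 when libraries were rescaled to one sum. The range was -1.25 (Mndal) to 1.67 (Ddx58). Without TAMo replicate 1, 20 members were higher and 6 lower, and without vehicle replicate 2 the counts were 20 and 5. The listed dendritic cell genes summed to 51.4 to 55.6 FPKM with TAMo, and the monocyte and macrophage genes to 11.6 to 14.6 FPKM, both below the vehicle sums. These sums mostly reflect Cd74, MHC class II and Ly6c2, and other genes of the lists were higher with TAMo. Zbtb46 had 5.9 and 5.09 FPKM with TAMo and 1.93 and 1.51 FPKM with vehicle. Cd68 had 3.63 and 7.05 FPKM with TAMo and 2.95 and 2.35 FPKM with vehicle. Xcr1 had 0.687 and 0.533 FPKM with TAMo and 0.0451 and 0.0199 FPKM with vehicle. Cd14 had 2.84 and 3.17 FPKM with TAMo and 0.0852 and 0.0563 FPKM with vehicle, while Csf1r stayed at or under 0.0213 FPKM with TAMo. The 16 neutrophil genes summed to 1.81 to 1.96 FPKM with TAMo, above the vehicle sums of 0.31 to 0.663 FPKM. The part of other cells was not tested.

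Set directly against each other, TAN was lower than TAMo in 29 of the 35 members and higher in 4, while 2 did not pass. Of all tested genes, 46% were lower and 40.6% higher with TAN than with TAMo, 86.6% in all. Ifit1, Oasl2 and Rtp4, all among those lower with TAN, reached 1 FPKM with TAMo and vehicle but not TAN. For them the limit itself favoured a lower TAN value, so the count is a description and not support. The median log2 change was -0.94 over the members and -0.07 over all tested genes. The TAN and TAMo libraries did not overlap in any of the 35, nor in 93% of all tested genes, so this separation is near the background. The 4 higher with TAN were Ifit2, Cmpk2, Mndal and Bst2, and those that did not pass were Ifi203 (adjusted p = 0.0562) and Isg20 (0.0849). Under alternatives, Isg20 was called lower in 6 (adjusted p 0.0259 to 0.0476) and Ifi203 higher in 4 (0.0108 to 0.0478, the lowest without TAN replicate 2). The Isg20 call was gained without vehicle replicate 1 (0.0381), vehicle replicate 2 (0.0386) or TAN replicate 1 (0.0414). Without TAN replicate 1 or TAMo replicate 2, 1 member was called higher. Both contrasts with vehicle use the same vehicle libraries, so their values are given side by side and no relation between them is drawn.

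**Figure D2:**
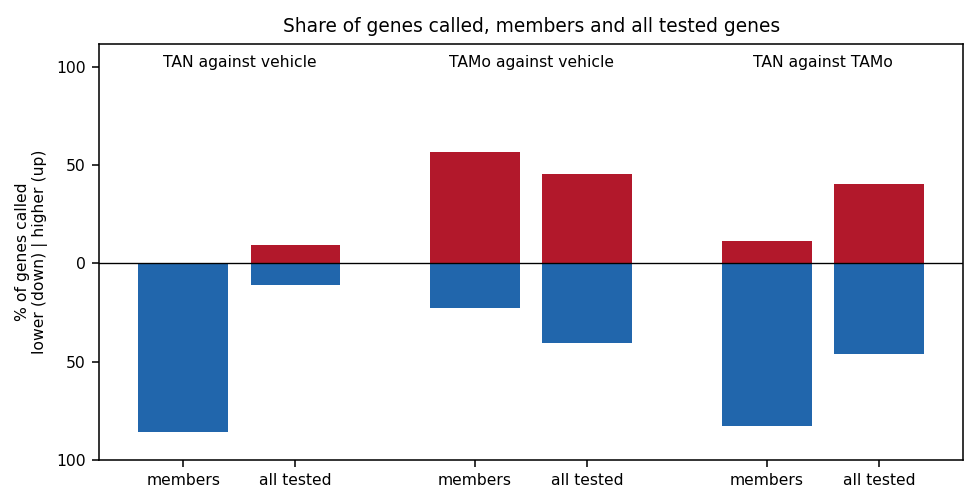
Percent of genes called higher (red, upward) and lower (blue, downward) among the 35 members compared and among all 10727 tested genes, in the 3 comparisons. Members called lower made up 85.7% for TAN against vehicle, where 11% of all tested genes were lower.

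**Figure D3:**
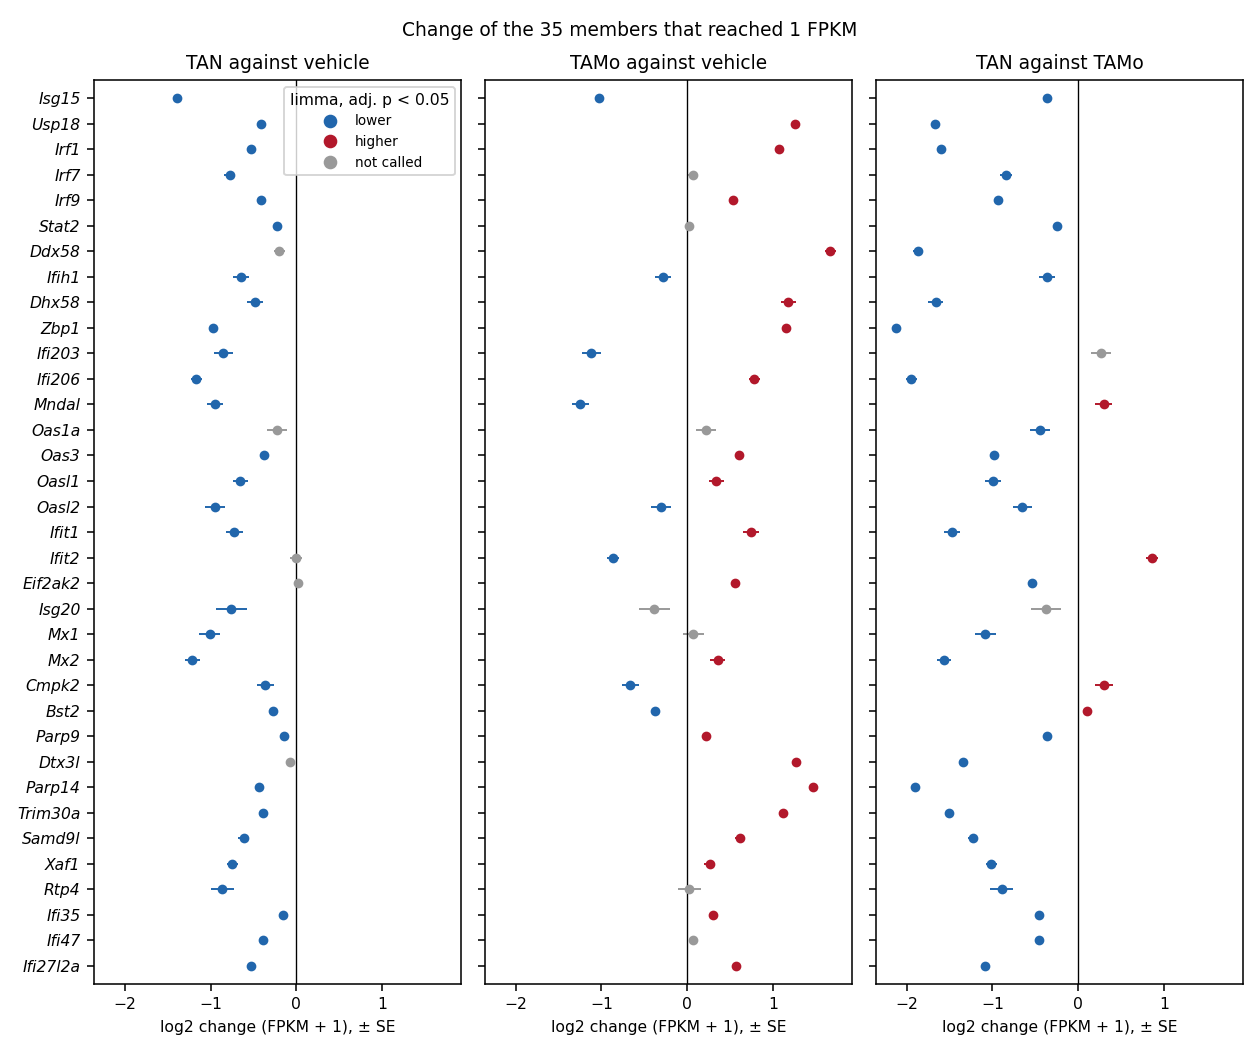
Log2 change on the scale log2(FPKM + 1) with its standard error for the 35 members in the 3 comparisons, with blue for lower, red for higher and grey for not called (limma adjusted p under 0.05). In the panel for TAN against vehicle no member is red, while the TAMo panel runs from -1.25 (Mndal) to 1.67 (Ddx58).

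Isg15 and Usp18 encode the ubiquitin-like modifier ISG15 and the protease that removes it from its targets, which also dampens signalling at IFNAR2. Isg15 (GRCm38 chromosome 4, 156199424 to 156200818) had 23.1 and 22.9 FPKM with TAN, 30.1 and 29.7 FPKM with TAMo, and 60.8 and 63.6 FPKM with vehicle. It was lower in every co-culture library than in either vehicle library. The log2 change was -1.40 ± 0.037 (SE) for TAN against vehicle (adjusted p = 1.01e-05), and -1.03 ± 0.037 for TAMo against vehicle (adjusted p = 1.05e-07). TAN against TAMo gave -0.37 (adjusted p = 3.98e-05), or -0.56 with libraries rescaled to one sum. Usp18 (chromosome 6, 121245906 to 121270917) had 19.6 and 20.2 FPKM with TAN, 64.9 and 65.8 FPKM with TAMo, and 27.9 and 25.7 FPKM with vehicle. It thus fell with TAN, by 0.41 ± 0.046 (adjusted p = 0.00202), but rose 2.44-fold with TAMo, at 1.26 ± 0.046 (adjusted p = 1.31e-07). TAN against TAMo gave -1.67 ± 0.046 (adjusted p = 3.19e-08). The modifier and its protease therefore moved the same way with TAN and opposite ways with TAMo. Calls in both directions were common with TAMo, at 40.7% of all tested genes lower and 45.7% higher.

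The transcription factor genes Irf1, Irf7, Irf9 and Stat2 were all lower with TAN, as were 11% of all tested genes. Irf1, a factor induced by interferon-gamma (chromosome 11, 53770014 to 53778374), had 57.5 and 56.6 FPKM with TAN, 177 and 172 FPKM with TAMo, and 80.9 and 84.3 FPKM with vehicle. The 3 groups were fully separate, with TAMo highest and TAN lowest. Its log2 change was -0.53 ± 0.033 for TAN (adjusted p = 0.000266) and 1.07 ± 0.033 for TAMo (adjusted p = 4.79e-08), each against vehicle, and -1.59 ± 0.033 for TAN against TAMo (adjusted p = 7.28e-09). Irf7, the factor that amplifies type I interferon transcription, had 9.24 and 8.73 FPKM with TAN, 16 and 17.8 FPKM with TAMo, and 16.6 and 15.7 FPKM with vehicle. It fell by 0.78 with TAN (adjusted p = 0.000762), and TAMo overlapped vehicle (0.07 ± 0.066, adjusted p = 0.381, or 0.26 and 0.00683 with libraries rescaled to one sum).

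The ISGF3 subunits differed in size of change. Irf9 had 27 and 26.4 FPKM with TAN, 51.5 and 52.6 FPKM with TAMo, and 37 and 34.5 FPKM with vehicle, with -0.41 ± 0.042 for TAN (adjusted p = 0.00145) and 0.53 ± 0.042 for TAMo (adjusted p = 1.04e-05). Stat2 had 37.1 and 35.8 FPKM with TAN, 43.5 and 43.2 FPKM with TAMo, and 43.7 and 41.9 FPKM with vehicle. Its fall with TAN was -0.23 ± 0.037 (adjusted p = 0.00774), and the call was lost without vehicle replicate 1 (0.0594) or TAN replicate 2 (0.0608). With TAMo it did not pass (0.02, adjusted p = 0.664), and it was called higher there with libraries rescaled to one sum (0.22, adjusted p = 0.000846) or one nuclear sum (0.0199). Reads of Irf9 and Rnf31, which overlap on the same strand, and of Irf7 and Phrf1 on opposite strands, may be shared.

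Among the sensors, the 3 RIG-I-like helicase genes did not move as a unit. Ddx58, which encodes RIG-I, a sensor of RNA with a triphosphate end (chromosome 4, 40203773 to 40239828), had 4.21 and 4.23 FPKM with TAN, 17.5 and 18.6 FPKM with TAMo, and 4.81 and 5.17 FPKM with vehicle. The TAMo libraries stood well above all others, and the TAN libraries just under vehicle. The TAMo change of 1.67 ± 0.063 (3.62-fold, adjusted p = 1.5e-07) was the largest rise of a member, and TAN did not pass at -0.20 ± 0.063 (adjusted p = 0.0677). TAN against TAMo gave -1.87 ± 0.063 (adjusted p = 8.4e-08).

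Dhx58, the gene of the regulatory helicase LGP2, had 5.32 and 5.65 FPKM with TAN, 18.8 and 20.2 FPKM with TAMo, and 7.27 and 8.89 FPKM with vehicle. It rose by 1.18 ± 0.091 with TAMo (adjusted p = 8.46e-06) and was lower with TAN by -0.48 ± 0.091 (adjusted p = 0.0132). The TAN call did not survive leaving out either TAN library (0.0815 for replicate 1, 0.0614 for replicate 2) or vehicle replicate 2 (0.0547), nor dropping the filter on low values (0.0605). TAN against TAMo gave -1.66 ± 0.091 (adjusted p = 1.2e-06). Ifih1, the gene of MDA5, a sensor of long double-stranded RNA, had 1.93 and 2.16 FPKM with TAN, 2.71 and 3.14 FPKM with TAMo, and 3.52 and 4.02 FPKM with vehicle. It was lowest with TAN, with -0.65 for TAN (adjusted p = 0.00534) and -0.28 for TAMo (adjusted p = 0.0243). The TAMo call was lost without vehicle replicate 2 or TAMo replicate 1 (0.14 each), when low genes were kept in (0.0708), and with libraries rescaled to one sum (0.242, log2 change -0.13) or to one nuclear sum (0.0742). Within this family, then, RIG-I and LGP2 transcripts were higher with TAMo than with vehicle and MDA5 transcripts were not. The share of all tested genes called higher with TAMo was 45.7%, and lower 40.7%.

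Zbp1 encodes a sensor of Z-form nucleic acid that can trigger necroptosis (chromosome 2, 173206612 to 173218923). It had 20.5 and 20.2 FPKM with TAN, 90.8 and 92.8 FPKM with TAMo, and 39.2 and 42.6 FPKM with vehicle. Its level was lowest in both TAN libraries and highest in both TAMo libraries. The log2 change was -0.97 ± 0.044 for TAN (2.01-fold lower, adjusted p = 6.67e-05) and 1.15 ± 0.044 for TAMo (2.25-fold higher, adjusted p = 1.68e-07). TAN against TAMo gave -2.12 ± 0.044 (adjusted p = 8.08e-09).

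**Figure D4:**
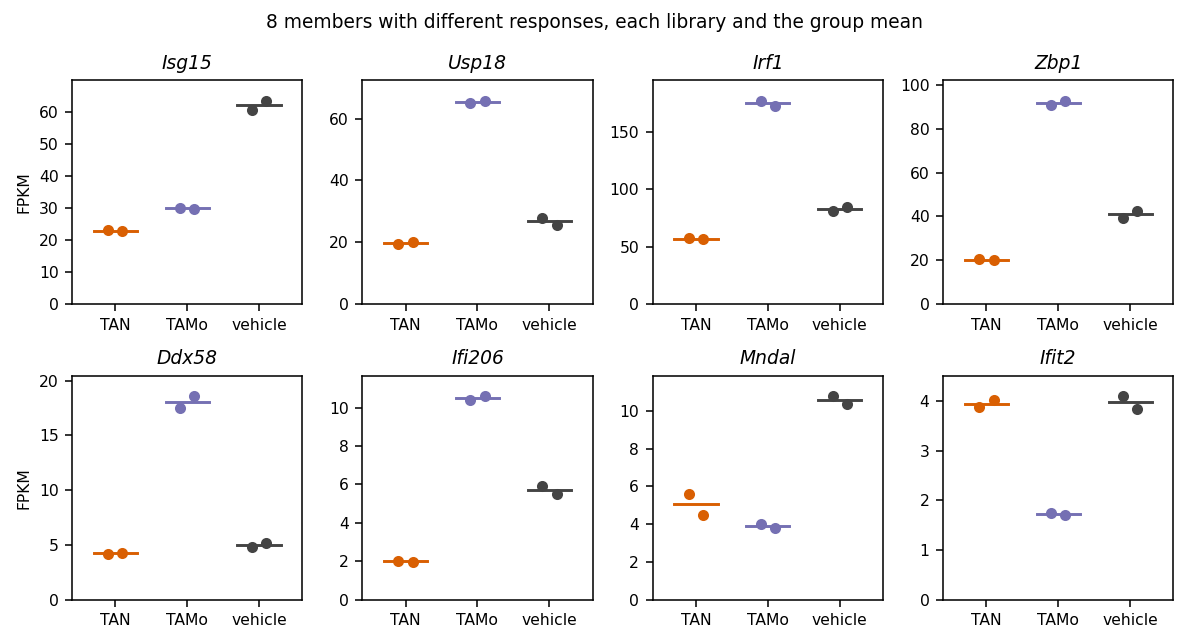
FPKM of 8 members chosen after their values were seen, with 1 point per library and a line at the mean of each group, for TAN, TAMo and vehicle (axes start at 0). Irf1, Usp18, Zbp1, Ddx58 and Ifi206 are highest with TAMo, Isg15 and Mndal are highest with vehicle, and Ifit2 is lowest with TAMo, at 1.74 and 1.71 FPKM.

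The PYHIN genes Ifi203, Ifi204, Ifi206 and Mndal lie within 474 kb of chromosome 1 and encode nuclear or cytosolic proteins of a family that includes DNA sensors. All 3 that were tested were lower with TAN, but they diverged with TAMo. Among all tested genes, 11% were lower with TAN, and with TAMo 40.7% were lower and 45.7% higher, so calls in both directions were common there. The 3 include Ifi203, for which the limit of 1 FPKM itself favoured lower values with TAN and with TAMo. Ifi206 (173468485 to 173491041) had 1.99 and 1.98 FPKM with TAN, 10.4 and 10.6 FPKM with TAMo, and 5.9 and 5.48 FPKM with vehicle. It fell by 1.17 ± 0.065 with TAN (adjusted p = 0.000193) and rose by 0.78 ± 0.065 with TAMo (adjusted p = 1.34e-05), and TAN against TAMo gave -1.95 ± 0.065 (adjusted p = 8.03e-08). Mndal (173849126 to 173942491) had 5.62 and 4.47 FPKM with TAN, 3.99 and 3.81 FPKM with TAMo, and 10.8 and 10.4 FPKM with vehicle. It fell in both co-cultures, by 0.95 ± 0.095 with TAN (adjusted p = 0.00127) and by 1.25 ± 0.095 with TAMo (adjusted p = 8.08e-06).

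Mndal was higher with TAN than with TAMo, at 0.30 (adjusted p = 0.02). That call was lost without TAN replicate 1 (0.108, log2 change 0.16) or TAMo replicate 2 (0.0538), with no filter (0.0646), and with libraries rescaled to one sum (0.214, 0.14) or one nuclear sum (0.0596). Ifi203 (173920407 to 173942672) had 0.923 and 0.568 FPKM with TAN, 0.404 and 0.48 FPKM with TAMo, and 2.14 and 2.12 FPKM with vehicle. Its changes were -0.85 for TAN (adjusted p = 0.00383) and -1.12 ± 0.113 for TAMo (adjusted p = 4.16e-05), and -1.43 and -2.05 with a pseudocount of 0.1. The annotated spans of Ifi203 and Mndal overlap by 22085 bases on the same strand, and PYHIN genes resemble each other, so their reads may be shared and the split between them is uncertain. Ifi204 stayed between 0.0486 and 0.414 FPKM in all 6 libraries.

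The OAS genes encode enzymes that make oligoadenylates on sensing double-stranded RNA, and related OASL proteins. Oas3 was by far the most abundant, with 33.8 and 34.5 FPKM with TAN, 69.1 and 67.7 FPKM with TAMo, and 43.5 and 46 FPKM with vehicle. It fell by 0.38 ± 0.037 with TAN (adjusted p = 0.00124) and rose by 0.60 ± 0.037 with TAMo (adjusted p = 2.41e-06). Oas1a had 3.68 and 3.16 FPKM with TAN, 5.4 and 4.62 FPKM with TAMo, and 4.65 and 3.71 FPKM with vehicle. It passed in neither comparison with vehicle (adjusted p = 0.217 for TAN and 0.114 for TAMo), and TAN was lower than TAMo (-0.44, adjusted p = 0.00809), a call lost without TAN replicate 2 (0.0566). Its TAMo level was called higher than vehicle with the replicate number as a block (adjusted p = 0.0267), without vehicle replicate 1 (0.0385), and with libraries rescaled to one sum (0.0147) or one nuclear sum (0.0407). Oas2 stayed between 0.459 and 0.866 FPKM.

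The OASL genes are neighbours on chromosome 5. Oasl1, which in mouse represses translation of Irf7, had 1.22 and 1.04 FPKM with TAN, 3.31 and 3.17 FPKM with TAMo, and 2.18 and 2.52 FPKM with vehicle. Its changes were -0.65 ± 0.089 for TAN (adjusted p = 0.00424), or -0.99 with a pseudocount of 0.1, and 0.34 ± 0.089 for TAMo (adjusted p = 0.00791). The TAMo call was lost without vehicle replicate 1 (0.0537). Oasl2 had 0.521 and 0.224 FPKM with TAN, 1.16 and 1.12 FPKM with TAMo, and 1.61 and 1.67 FPKM with vehicle. It was lower with TAN in both libraries, with a log2 change of -0.95 ± 0.115 (adjusted p = 0.00275), or -1.96 with a pseudocount of 0.1. Its lower TAMo level (-0.30, adjusted p = 0.0397) was lost under 9 of 15 alternatives, among them the removal of any 1 of the vehicle and TAMo libraries (adjusted p up to 0.133). It was also lost with no filter (0.0758), with a pseudocount of 0.1 (0.16, log2 change -0.49) or 0.5 (0.067), and with libraries rescaled to one sum (0.155, -0.19) or one nuclear sum (0.0751).

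The 3 Ifit genes, whose proteins bind viral RNA or translation factors, sit within 99.3 kb of chromosome 19. Ifit1 (34640871 to 34650009) had 0.319 and 0.311 FPKM with TAN, 2.82 and 2.48 FPKM with TAMo, and 1.31 and 1.04 FPKM with vehicle. It fell by 0.72 ± 0.098 with TAN (adjusted p = 0.00408) and rose by 0.75 ± 0.098 with TAMo (adjusted p = 0.000194). With a pseudocount of 0.1 the TAN change was -1.61, and that for TAN against TAMo was -2.72 in place of -1.47. Ifit2 (34550694 to 34576419) had 3.87 and 4.02 FPKM with TAN, 1.74 and 1.71 FPKM with TAMo, and 4.1 and 3.84 FPKM with vehicle. TAN and vehicle overlapped (-0.01 ± 0.071, adjusted p = 0.961, with a sign that turned without vehicle replicate 1 or TAN replicate 1), whereas TAMo was 2.30-fold lower than vehicle (-0.87, adjusted p = 1.24e-05). Ifit3 stayed between 0.0507 and 0.345 FPKM.

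Eif2ak2 encodes PKR, a kinase that halts translation on double-stranded RNA. It had 14.7 and 15 FPKM with TAN, 21.8 and 22.3 FPKM with TAMo, and 14.8 and 14.5 FPKM with vehicle, so that TAN and vehicle were close (0.02, adjusted p = 0.807) and TAMo rose (0.56, adjusted p = 8.7e-06). Isg20 encodes an exonuclease of single-stranded RNA. It had 2.45 and 1.67 FPKM with TAN, 2.86 and 3.01 FPKM with TAMo, and 3.32 and 5.11 FPKM with vehicle. The fall with TAN (-0.76 ± 0.18, adjusted p = 0.0274) was lost without vehicle replicate 2 (0.117) or TAN replicate 2 (0.148), with no filter (0.112) and with no mean-variance trend (0.0548). TAMo did not pass (-0.38, adjusted p = 0.0787), and was called lower without vehicle replicate 1 (0.0121, log2 change -0.63).

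Mx1 and Mx2 encode dynamin-like GTPases that trap viral components, and lie within 114 kb of chromosome 16. Mx1 had 1.01 and 1.09 FPKM with TAN, 3.2 and 3.48 FPKM with TAMo, and 3.69 and 2.65 FPKM with vehicle. It fell by 1.01 ± 0.123 with TAN (adjusted p = 0.00275), and TAMo overlapped vehicle (0.07, adjusted p = 0.61). Mx2 had 1.51 and 1.88 FPKM with TAN, 6.78 and 7.14 FPKM with TAMo, and 5.17 and 5.26 FPKM with vehicle. It fell by 1.21 ± 0.084 with TAN (adjusted p = 0.000397) and rose by 0.36 ± 0.084 with TAMo (adjusted p = 0.00505), and TAN against TAMo gave -1.57 ± 0.084 (adjusted p = 1.09e-06). The genes are close relatives, and their reads may be shared.

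Rsad2 encodes viperin, which makes a chain-terminating nucleotide, and Cmpk2, its neighbour on chromosome 12, a mitochondrial nucleotide kinase. Rsad2 stayed under 1 FPKM, with 0.229 and 0.381 FPKM with TAN, 0.904 and 0.867 FPKM with TAMo, and 0.689 and 0.715 FPKM with vehicle. Cmpk2 had 2.67 and 2.06 FPKM with TAN, 1.75 and 1.68 FPKM with TAMo, and 3.2 and 3.41 FPKM with vehicle. It was lowest with TAMo (-0.66, adjusted p = 0.000468). The TAN call (-0.36, adjusted p = 0.0459) was lost under 8 of 15 alternatives, with adjusted p of 0.135 without vehicle replicate 1, 0.189 without vehicle replicate 2, and 0.2 without TAN replicate 2 (log2 change -0.23). It was also lost with no filter (0.132), no trend (0.0528), a pseudocount of 0.1 (0.0613) or 0.5 (0.0517), and the replicate block (0.0562). The higher level with TAN than with TAMo (0.30, adjusted p = 0.0242) was lost without TAN replicate 1 (0.146, log2 change 0.17), TAMo replicate 1 (0.0511) or TAMo replicate 2 (0.0786), with no filter (0.0697), and with libraries rescaled to one sum (0.148, 0.17) or one nuclear sum (0.0559).

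Bst2 encodes tetherin, a membrane protein that holds budding virions at the cell surface. It had 218 and 212 FPKM with TAN, 205 and 194 FPKM with TAMo, and 255 and 263 FPKM with vehicle. Both co-cultures were lower than vehicle, with -0.27 for TAN (adjusted p = 0.00362) and -0.38 for TAMo (adjusted p = 2.7e-05), or -0.17 for TAMo with libraries rescaled to one sum. The direction for TAN against TAMo depended on scaling. It was 0.11 as deposited (adjusted p = 0.0233), -0.09 with one sum (0.0427), 0.01 with quantile normalisation (0.8) and 0.01 with one nuclear sum (0.788). The call was also lost without TAN replicate 1 (0.132) or TAMo replicate 2 (0.0791, log2 change 0.07), with no filter (0.0573) and with no trend (0.0734).

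Parp9 and Dtx3l encode an ADP-ribosyltransferase and its ubiquitin ligase partner, and Parp14 a larger transferase, all within 140 kb of chromosome 16. Parp9 and Dtx3l start head to head, and their annotated spans overlap by 682 bases on opposite strands. Parp9 had 33.7 and 35.3 FPKM with TAN, 44.6 and 44.8 FPKM with TAMo, and 38.9 and 37.4 FPKM with vehicle. Dtx3l had 15.5 and 15.5 FPKM with TAN, 40.3 and 41.8 FPKM with TAMo, and 16.3 and 16.5 FPKM with vehicle. With TAMo the partner genes rose by different amounts, Dtx3l by 1.27 ± 0.040 (2.50-fold, adjusted p = 5.58e-08) and Parp9 by 0.22 ± 0.039 (1.17-fold, adjusted p = 0.000963), or 0.42 with libraries rescaled to one sum. That difference between genes was not tested. With TAN, Dtx3l did not pass (-0.08, adjusted p = 0.227).

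The Parp9 call for TAN (-0.14 ± 0.039, adjusted p = 0.0421) was lost without any 1 of the TAN and vehicle libraries (adjusted p up to 0.199). It was lost too with no filter (0.0788), no trend (0.0846), quantile normalisation (0.0784) and the replicate block (0.0562). Parp14 (35832874 to 35871544) had 8.74 and 8.11 FPKM with TAN, 34.4 and 33.8 FPKM with TAMo, and 11.7 and 11.7 FPKM with vehicle. The log2 change was -0.43 ± 0.050 for TAN (adjusted p = 0.00237) and 1.47 ± 0.050 for TAMo (2.92-fold, adjusted p = 8.95e-08), and -1.90 ± 0.050 for TAN against TAMo (adjusted p = 2.55e-08).

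Of the remaining 8 members, 7 were compared, and all 7 were lower with TAN than with vehicle and lower with TAN than with TAMo. Among all tested genes, 11% were lower with TAN than with vehicle, and 46% lower with TAN than with TAMo. The 7 include Rtp4, for which the limit of 1 FPKM itself favoured a lower TAN value. Trim30a, a member of the tripartite motif family that restrains innate signalling in mouse, had 31 and 31 FPKM with TAN, 89.2 and 90.7 FPKM with TAMo, and 41.2 and 40.8 FPKM with vehicle. Its changes were -0.39 ± 0.030 for TAN (adjusted p = 0.000571) and 1.11 ± 0.030 for TAMo (adjusted p = 2.71e-08). Samd9l, an inhibitor of translation and growth, had 5.62 and 5.19 FPKM with TAN, 13.7 and 14.3 FPKM with TAMo, and 8.75 and 8.84 FPKM with vehicle, with -0.62 ± 0.060 (adjusted p = 0.00124) and 0.61 ± 0.060 (adjusted p = 3.55e-05). Both genes put the 3 groups in separate ranges, with TAN lowest. Xaf1, which antagonises an inhibitor of apoptosis, had 11.5 and 12.8 FPKM with TAN, 25.4 and 25.5 FPKM with TAMo, and 22 and 20.1 FPKM with vehicle. It fell by 0.75 ± 0.064 with TAN (adjusted p = 0.000762) and rose by 0.26 ± 0.064 with TAMo (adjusted p = 0.00553), or 0.46 with libraries rescaled to one sum.

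Ifi27l2a, a small membrane protein gene, was among the most abundant members, with 165 and 172 FPKM with TAN, 364 and 357 FPKM with TAMo, and 247 and 240 FPKM with vehicle. It fell by 0.53 ± 0.031 with TAN (adjusted p = 0.000221) and rose by 0.56 ± 0.031 with TAMo (adjusted p = 1.23e-06). Ifi47, an immunity-related GTPase gene, had 62.3 and 62.6 FPKM with TAN, 87.7 and 84.3 FPKM with TAMo, and 81.1 and 83.3 FPKM with vehicle. It fell with TAN (-0.39, adjusted p = 0.000723), and with TAMo it did not pass (0.07, adjusted p = 0.0955), though it was called higher with libraries rescaled to one sum (0.27, adjusted p = 0.00014), rescaled to one nuclear sum (0.00239), with quantile normalisation (0.0145) or without TAMo replicate 2 (0.0389). Rtp4, a chaperone of membrane receptors, had 0.821 and 0.457 FPKM with TAN, 1.76 and 2.3 FPKM with TAMo, and 2.01 and 1.92 FPKM with vehicle. Its fall with TAN was -0.86 ± 0.134 (adjusted p = 0.00645), or -1.53 with a pseudocount of 0.1, and was lost without vehicle replicate 1 (0.0545). Ifi35, whose protein binds that of Nmi, had 53 and 54.2 FPKM with TAN, 73.8 and 73.8 FPKM with TAMo, and 59 and 60.3 FPKM with vehicle. Its rise with TAMo was 0.30 ± 0.030 (adjusted p = 3.89e-05), or 0.50 with libraries rescaled to one sum. Its fall with TAN (-0.15 ± 0.030, adjusted p = 0.0152) was lost with no trend (0.0507) and when any 1 of the TAN and vehicle libraries was left out (adjusted p up to 0.0932). Ifi44 stayed between 0.23 and 0.608 FPKM.

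Members with and without an ISRE core in the promoter window overlapped in their changes. The 12 compared members with a core had log2 changes of -1.40 to 0.02 for TAN against vehicle (median -0.39), and the 14 without had -0.95 to -0.01 (median -0.57). For TAMo against vehicle the values were -1.25 to 1.67 (median 0.39) with a core and -1.12 to 1.27 (median 0.16) without. The value of -1.12 is that of Ifi203, whose other window holds a core, so its group depends on the window used. A window without a match shows only that these letters are not in it.

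Upstream of these genes, interferon-gamma was the only listed ligand whose transcripts reached 1 FPKM in these libraries. The RNA came from T cells purified again, so interferon made by the myeloid cells was not measured. Ifng had 1130 and 1150 FPKM with TAN, 225 and 227 FPKM with TAMo, and 677 and 683 FPKM with vehicle. It was highest with TAN and lowest with TAMo, with 0.74 ± 0.025 for TAN (adjusted p = 2.17e-05) and -1.59 ± 0.025 for TAMo (adjusted p = 2.15e-09), and 2.33 for TAN against TAMo (adjusted p = 6.04e-10). The other 9 ligand genes listed, Ifnb1 and interferon alpha, epsilon, kappa and lambda genes, were at 0 or at most 0.0796 FPKM in every library. Ifna5 had 0.0783 and 0.0776 FPKM with vehicle, and Ifnb1 was at most 0.0298 FPKM in any library.

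Of 14 receptor, kinase, STAT and feedback genes, 2 rose and 2 fell with TAN, and 10 rose and 3 fell with TAMo. Among all tested genes, 9.37% rose and 11% fell with TAN, and 45.7% rose and 40.7% fell with TAMo. The kinase gene Jak2 rose by 1.93 with TAMo. Ifnar1 had 32.4 and 31.9 FPKM with TAN, 42.6 and 43.3 FPKM with TAMo, and 36.9 and 36.3 FPKM with vehicle. It fell by 0.18 with TAN (adjusted p = 0.0114, lost without any 1 of the TAN and vehicle libraries, up to 0.0756) and rose by 0.23 with TAMo, or 0.42 with libraries rescaled to one sum. Ifnar2 did not pass with TAN (-0.06, adjusted p = 0.501) and was lower with TAMo (-0.23, adjusted p = 0.00678), a call lost with libraries rescaled to one sum (0.562, -0.04) or one nuclear sum (0.0595, -0.14).

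Of 16 tested sensor adaptor, kinase and IRF genes, 7 fell and none rose with TAN, and 11 rose and 4 fell with TAMo. Irf8 had the largest of these TAN falls at a mean of at least 5 FPKM (-0.35, adjusted p = 0.000545). With TAMo, the kinase gene Ikbke rose by 2.62 and Irf5 by 2.11, while Mb21d1, the gene of the DNA sensor cGAS, fell by 1.45 and Irf3 by 0.68. Of 47 other antiviral effector genes, 25 fell and 4 rose with TAN, and 35 rose and 8 fell with TAMo. With TAN, Trim12a fell by 0.71 and Parp10 by 0.62. With TAMo, Oas1b rose by 2.16 and N4bp1 by 1.98, and Nmi and Phf11b fell by 1.35 and 1.22. Of 4 other tested PYHIN genes, 3 fell with TAN, among them Ifi209 (-0.67, adjusted p = 0.00645, lost without vehicle replicate 2 at 0.0535 or TAN replicate 2 at 0.0539), and 1 rose and 1 fell with TAMo. As for the members, the shares of all tested genes were 11% lower and 9.37% higher with TAN, and 40.7% lower and 45.7% higher with TAMo. Some counted genes reached 1 FPKM in certain groups only: Ifi214 with TAMo, Tlr7 with vehicle, and Ifi213 with TAMo and vehicle. Phf11a reached it with TAN and vehicle, and Ifitm1 with TAN and TAMo. For these the limit itself favoured higher values in the groups named, so the counts are a description and not support.

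The genes that attach ISG15 to its targets were looked at after the values were seen. Uba7, which encodes its activating enzyme, fell by 0.50 with TAN (adjusted p = 0.00534). With TAMo it was 0.18 higher (adjusted p = 0.048), a call lost under 11 of 16 alternatives (adjusted p up to 0.247, without TAMo replicate 2, where the log2 change was 0.11). Ube2l6, the conjugating enzyme gene, did not pass with TAN (-0.38, adjusted p = 0.0679, but called lower without either TAMo library, at 0.0158 and 0.0147) and fell by 1.17 with TAMo (adjusted p = 4.76e-05). Herc6, the mouse ISG15 ligase gene, fell by 0.36 with TAN (adjusted p = 0.00438) and rose 2.10-fold with TAMo (adjusted p = 7.03e-07). With TAMo, Isg15 and Ube2l6 were thus lower than with vehicle, and Usp18 and Herc6 higher. Of all tested genes, 40.7% were lower and 45.7% higher with TAMo, so calls in both directions were common.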

How the data were processed

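RNA of 6 libraries was prepared with a TruSeq kit, which was not stated to keep strand, and sequenced on a NovaSeq. The authors deposited 1 table of FPKM per gene. The submitters' processing notes name HISAT2 2.0.5, featureCounts 1.5.0-p3, CASAVA and the build mm 10. For annotation, gene lengths and strand setting: not given in the sources used here. Depth was read from whole-number steps of the low FPKM values: 98.8% to 99.0% were whole within 0.1 reads.

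Genes with at least 1 FPKM in 2 or more libraries (10727 of 25638) were fitted with limma 3.58.1 in R 4.3.3 on log2(FPKM + 1), over all 6 libraries, with a mean-variance trend, 3 residual and 4.07 prior degrees of freedom, and Benjamini-Hochberg adjustment over all tested genes. All adjusted p-values and standard errors are from this limma fit. Log2 changes understate those of low genes, and folds are ratios of mean FPKM. Positions are from GENCODE M21, in which all 40 members matched.

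The members and gene lists were chosen with earlier results of these data known. Values of all compared members may be printed. Full statistics were meant for the 8 largest changes per comparison and for members called in opposite directions against vehicle, and of other pathway genes for at most 4 per list and direction, plus Ifng, Ifnar1 and Ifnar2. Some genes of these lists are counted but not reported here by name. Alternatives were other filters, pseudocounts, scalings, variance models, a replicate block and leaving out each library. Replicates of a group had correlations of 0.9981 (TAN), 0.9961 (TAMo) and 0.9982 (vehicle), with no identical libraries. Relative to read sampling, replicate variation averaged 10.2 for TAMo, 1.98 for TAN and 2.37 for vehicle over single-transcript genes. The median gene gave 1.65, 1.62 and 1.62. The fit used a spread shared by all groups, so standard errors do not show a larger spread with TAMo.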

Additional observations from a re-analysis of the deposited data

How the results depend on the processing

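Direction and call stayed the same in most of the alternatives tried for the compared members. For TAN against vehicle, members called lower numbered 21 (of 25 tested at a mean of at least 5 FPKM) to 30, and 24 to 30 when 1 library was left out, and none was called higher under any of the 16 alternatives. The median member change was -0.41 with a mean of at least 5 FPKM. All genes called numbered 1331 with no filter and 703 to 2802 when 1 library was left out. For TAMo against vehicle, members called lower numbered 3 with a mean of at least 5 FPKM and 5 to 8 when 1 library was left out. The median was 0.56 with that filter, 0.49 rescaled to one sum and 0.40 to one nuclear sum. For TAN against TAMo, members called higher numbered 1 with no filter, 2 with a mean of at least 5 FPKM, 1 rescaled to one sum, 1 to one nuclear sum, and 1 to 5 when 1 library was left out. Signs turned when 1 library was left out, in values that were not called: Ifit2 with TAN ranged from -0.045 to 0.032, and with TAMo Mx1 ranged from -0.112 to 0.25, Stat2 from -0.012 to 0.048, Irf7 from -0.010 to 0.139 and Rtp4 from -0.105 to 0.154. Bst2 in TAN against TAMo was -0.093 rescaled to one sum. The cause was not tested. Rescaling to one sum moved the median of all genes to -0.25 for TAN against TAMo, against -0.07, and the share of calls for TAMo against vehicle that were higher to 61.6%, against 52.9%.

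Differences between the replicates of a group had low correlations across genes (0.0567 for TAN and vehicle, 0.0245 for TAMo and vehicle, 0.00782 for TAN and TAMo). Such values cannot exclude a shared culture or animal, and the labels do not say what a replicate number marks. With the replicate number as a block, members called lower with TAN numbered 28 and all genes called 2140, and for TAMo against vehicle 8 members were lower and 21 higher. For TAN against TAMo the block gave 29 lower and 4 higher.

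With 2 libraries a group, leaving 1 out assumes that the lone library varies like the other groups. Genes near 1 FPKM depend most on the pseudocount.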
